A study of Caenorhabditis elegans with 2 samples.

Results

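The small nuclear RNA (snRNA) and small nucleolar RNA (snoRNA) genes of Caenorhabditis elegans were examined in a chromatin immunoprecipitation sequencing (ChIP-seq) data set for ZAG-1. The members were all genes that the WBcel235 annotation (the same assembly as ce11) gives the biotype snRNA or snoRNA on nuclear chromosomes, each extended by 200 bp on both sides. There were 475 of them among 46890 nuclear genes, 129 snRNA and 346 snoRNA genes. They were short, between 22 and 344 bp long, with a median of 109 bp for snRNA and 130 bp for snoRNA genes. Neighbouring windows merged into 448 loci, since some of these genes lie side by side. ZAG-1, the worm's ZEB-family protein with zinc fingers and a homeodomain, is a transcription factor that acts as neurons differentiate. The samples were 2 biological replicates of whole larvae of the second stage (L2), with both sexes pooled, of the strain OP83, which carries unc-119(ed3) on chromosome III and the insertion wgIs83 expressing eGFP-tagged ZAG-1. Both replicates form 1 group, and no untagged or wild-type animals were analysed here. A peak from whole larvae cannot be assigned to a cell type. A summit is the position the authors' peak file gives as the peak's highest point. A gene is called here when at least 1 summit of the irreproducible discovery rate (IDR) thresholded list, which held 1803 peaks, lay in its window.

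Spliceosomal snRNAs are the RNA cores of the particles that remove introns. U1 pairs with the 5′ splice site, U2 with the branch point, and U4, U5 and U6 join them as a tri-particle. Nematodes also use spliced leader RNAs, SL1 and SL2, which donate a short leader to messenger RNAs by trans-splicing, SL2 mostly to downstream genes of operons. SmY RNAs are small nematode RNAs that associate with the spliced leader particle. snoRNAs guide chemical modification of other RNAs: box C/D snoRNAs direct ribose methylation and box H/ACA snoRNAs direct pseudouridylation. Genes for snRNAs and spliced leaders carry an upstream proximal sequence element that the factor SNAPc recognizes, and U6 is transcribed by RNA polymerase III and the others by RNA polymerase II. Many snoRNAs lie in introns of protein-coding genes and can be cut out of the host's transcript, while others have promoters of their own. A B box is the internal promoter element of transfer RNA genes and is bound by TFIIIC.

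The strongest snRNA sites were at SL2 RNA genes. The 3 snRNA genes among the 50 highest-scoring IDR-thresholded peaks were sls-2.1, sls-2.4 and sls-2.2, all SL2 RNA genes. Together with sls-2.3, they were the only snRNA or snoRNA genes with the 9 bases GCCTCGAAA within 100 bp upstream. That word was chosen after the sequences had been read. It stood upstream of 7 of 19973 protein-coding genes (0.0350%) and of 0 of 7760 genes of biotype ncRNA. The 100 bases upstream of sls-2.1 and sls-2.2 are shown with those of sls-2.3, which had no IDR-thresholded summit. They run 5′ to 3′ and end at the base before the RNA's first base, and capitals mark the shared word.
sls-2.1 (chrII:5844765-5844864, plus strand): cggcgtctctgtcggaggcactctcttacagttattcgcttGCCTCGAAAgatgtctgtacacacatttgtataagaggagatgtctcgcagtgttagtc
sls-2.2 (chrII:5543498-5543597, plus strand): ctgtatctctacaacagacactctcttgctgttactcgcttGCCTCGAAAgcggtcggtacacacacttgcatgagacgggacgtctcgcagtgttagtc
sls-2.3 (chrII:5544274-5544373, minus strand): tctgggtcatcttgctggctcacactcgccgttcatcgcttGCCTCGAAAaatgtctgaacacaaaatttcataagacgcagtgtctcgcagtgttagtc

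A second arrangement was shared by members of both biotypes: the letters ACCC and TGTC separated by 6 bases, on the RNA's own strand. This spaced pair was also chosen after the sequences had been read, and it is a description of letters, not of a bound element. It occurred within 100 bp upstream of 43 of 129 snRNA genes (33.3%) and 27 of 346 snoRNA genes (7.80%), against 0.110% of protein-coding genes and 0.219% of ncRNA genes. Its first base lay between 70 and 50 bp before the 5′ end in 42 of the 43 snRNA genes and in 24 of the 27 snoRNA genes. The set below holds the called members with the pair among the 10 highest-scoring ones that are shown, and then sls-2.16 and sls-2.11, SL2 genes with the pair but with no summit in any list. W05B2.8 is a U6-type and sup-6 a U1-type gene, and ZK994.7 is a snoRNA gene in an intron of pxn-1.
W05B2.8 (chrIII:10989579-10989678, plus strand): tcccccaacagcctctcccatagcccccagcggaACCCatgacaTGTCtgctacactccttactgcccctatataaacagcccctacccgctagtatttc
sls-2.8 (chrIII:12250365-12250464, plus strand): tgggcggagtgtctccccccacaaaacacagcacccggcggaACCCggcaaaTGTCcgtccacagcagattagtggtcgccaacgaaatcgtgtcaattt
ZK994.7 (chrV:8500479-8500578, plus strand): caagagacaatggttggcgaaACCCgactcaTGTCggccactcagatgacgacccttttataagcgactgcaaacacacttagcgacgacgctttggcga
sup-6 (chrII:12944968-12945067, minus strand): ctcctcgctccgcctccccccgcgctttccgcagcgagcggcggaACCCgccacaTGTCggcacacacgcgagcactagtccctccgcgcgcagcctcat
sls-2.16 (chrIII:7141291-7141390, plus strand): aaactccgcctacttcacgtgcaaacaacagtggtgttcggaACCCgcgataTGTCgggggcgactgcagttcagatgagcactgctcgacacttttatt
sls-2.11 (chrIV:9140315-9140414, plus strand): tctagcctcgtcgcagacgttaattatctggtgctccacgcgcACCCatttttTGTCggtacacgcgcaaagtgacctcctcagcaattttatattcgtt

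The third arrangement was the B-box word GTTCNANNC, in which N is any base, on the RNA's own strand. It too was chosen after the sequences had been read. It stood within 100 bp upstream of 33 of 346 snoRNA genes (9.54%) and of 1 of 129 snRNA genes (0.775%), against 1.43% of protein-coding genes and 1.48% of ncRNA genes. On the opposite strand it was found at 0.867% of snoRNA genes. Its first base lay at a median of 14 bp before the snoRNA. No member held both this word and the spaced pair. The 4 highest-scoring called snoRNA genes with the word are shown, the word in capitals. In the stretch shown for C51F7.3, both words lie within the neighbouring snoRNA gene C51F7.4, which is 95 bp long.
C51F7.3 (chrV:12303608-12303707, plus strand): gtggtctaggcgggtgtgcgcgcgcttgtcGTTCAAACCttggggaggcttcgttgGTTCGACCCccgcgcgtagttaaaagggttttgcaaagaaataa
C02F5.15 (chrIII:8227763-8227862, plus strand): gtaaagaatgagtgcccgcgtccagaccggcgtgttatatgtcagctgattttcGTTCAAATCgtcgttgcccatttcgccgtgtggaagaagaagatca
F32E10.10 (chrIV:7574022-7574121, plus strand): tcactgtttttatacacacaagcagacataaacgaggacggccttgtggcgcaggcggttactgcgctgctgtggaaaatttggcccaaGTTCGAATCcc
M106.6 (chrII:10840217-10840316, plus strand): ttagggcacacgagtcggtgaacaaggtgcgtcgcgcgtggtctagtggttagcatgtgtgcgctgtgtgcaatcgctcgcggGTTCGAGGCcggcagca

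The remaining 4 of the 10 highest-scoring members shown had none of the 3 arrangements in this stretch. They are M7.15, the member with the highest score, C52E4.8, a U4-type snRNA gene, and the snoRNA genes ZK20.9 and F07A11.15. No capitals are used for them.
M7.15 (chrIV:11083047-11083146, plus strand): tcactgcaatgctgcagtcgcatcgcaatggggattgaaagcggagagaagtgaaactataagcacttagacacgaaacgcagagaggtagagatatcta
C52E4.8 (chrV:11980018-11980117, plus strand): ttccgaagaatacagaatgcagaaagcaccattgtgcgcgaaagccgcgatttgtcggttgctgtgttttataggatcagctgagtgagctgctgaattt
ZK20.9 (chrII:11635125-11635224, plus strand): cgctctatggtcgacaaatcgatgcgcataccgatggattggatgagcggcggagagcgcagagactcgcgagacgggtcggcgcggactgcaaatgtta
F07A11.15 (chrII:11619925-11620024, plus strand): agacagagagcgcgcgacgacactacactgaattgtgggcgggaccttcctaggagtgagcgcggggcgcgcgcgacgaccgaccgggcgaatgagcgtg

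Summits fell on these genes more densely than on the genome. The member windows covered 247.8 kb, or 0.247% of the nuclear genome, and held 57 of the 1784 nuclear IDR-thresholded summits (3.20% of the summits). That is 230 summits per Mb, against 17.8 per Mb for the nuclear genome, a ratio of 12.9. The ratio was 11.1 in snRNA and 13.6 in snoRNA windows. For the longer lists it was 4.22 with the pooled peaks, 3.12 in replicate 1 and 2.48 in replicate 2. Moving every window by 1000 bp lowered the counts. The windows in place held a summit at 11 snRNA genes, against 2 when moved upstream and 0 when moved downstream. For snoRNA genes the number was 45 in place, against 19 upstream and 3 downstream. These are counts in 1 data set, with no test.

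By gene, 56 of 475 members (11.8%) were called. Of snRNA genes 11 of 129 (8.53%, 95% Wilson interval 4.83 to 14.6) and of snoRNA genes 45 of 346 (13.0%, 9.86 to 17.0) had an IDR-thresholded summit, against 3.20% of all nuclear genes with the same extension and 6.31% of genes of biotype ncRNA. Transfer RNA genes, at 10.5%, were close to the members, and microRNA genes, at 2.30%, were below. In the pooled list, 33 snRNA genes (25.6%) and 123 snoRNA genes (35.5%) had a summit. The shares were 21.2% of all nuclear genes and 25.8% of ncRNA genes, so the snRNA share was near both backgrounds. Transfer RNA genes, at 48.2%, stood above both member classes in that list. Of the 46890 nuclear genes, 15363 were of biotype piRNA, of which 0.0911% were called and 4.46% had a pooled summit. They lower the share of all nuclear genes here and wherever it is used below. In replicate 1 the shares were 27.9% of snRNA and 39.0% of snoRNA genes, with 28.4% of all nuclear genes. In replicate 2 they were 27.9% and 38.2%, with 33.1% of all nuclear genes. In the full replicate lists, which also hold weak candidates, the snRNA share was thus below that of all genes. Protein-coding genes with the same extension, whose windows are longer, had a summit in 4.25% of cases in the IDR-thresholded list, 32.7% in the pooled list, 44.9% in replicate 1 and 52.2% in replicate 2, so they stood above the snoRNA genes in both replicate lists.

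**Figure D1:**
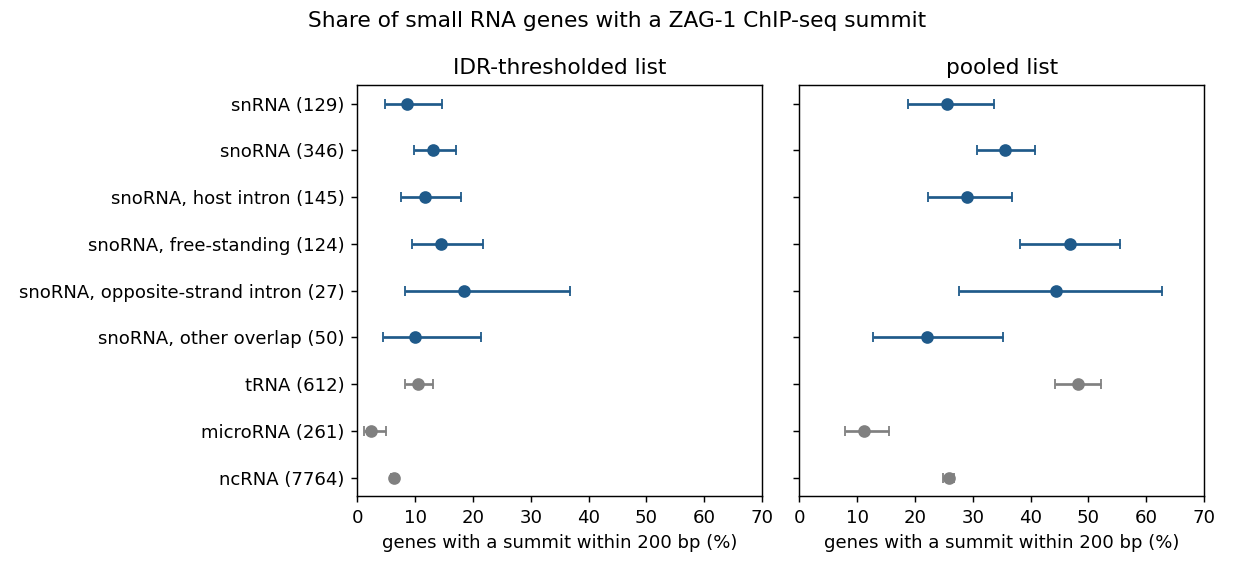
Share of genes with a summit within 200 bp (x axis, percent) for snRNA and snoRNA genes, 4 placements of snoRNA genes and 3 other biotypes (grey), in the IDR-thresholded list (left panel) and the pooled list (right panel). Points are shares, bars are 95% Wilson intervals and gene numbers are in brackets. In the left panel snoRNA genes stand at 13.0% and snRNA genes at 8.53%, and in the right panel host-intron snoRNA genes (29.0%) stand below free-standing ones (46.8%).

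The difference between snRNA and snoRNA genes was not past the threshold. It was tested over merged loci, so that neighbours sharing a summit counted once. In the IDR-thresholded list 10 of 122 snRNA loci (8.20%) and 43 of 324 snoRNA loci (13.3%) were called, a difference of -5.07 percentage points (two-sided Fisher's exact test, p = 0.188, Benjamini-Hochberg adjusted over 4 tests 0.251). In the pooled list it was 26.2% of snRNA and 37.3% of snoRNA loci, a difference of -11.1 points (Fisher's exact p = 0.0333, adjusted 0.0665). A p above the threshold does not show that the shares are alike. Loci are not replicates of a condition, so each p describes these lists only.

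The shares of host-intron and free-standing snoRNA genes in the IDR-thresholded list had overlapping intervals. A host-intron snoRNA lies within an intron of a protein-coding gene on the same strand, and a free-standing one overlaps no protein-coding gene. Of host-intron genes, 17 of 145 (11.7%, 7.45 to 18.0) were called, and of free-standing genes 18 of 124 (14.5%, 9.38 to 21.8). Over loci the shares were 13.1% and 14.6% (Fisher's exact p = 0.856, adjusted 0.856). Their scores had the same median, 42.6 in both sets. In the pooled list 32.3% of host-intron and 47.2% of free-standing loci had a summit, a difference of -14.8 points that missed the threshold after adjustment (Fisher's exact p = 0.0204, adjusted 0.0665). Both replicates gave the same order for genes, 31.7% of host-intron and 50.8% of free-standing ones in replicate 1, and 33.1% and 46.0% in replicate 2. Of snoRNA genes in an intron on the opposite strand, 5 of 27 were called, and of those with another overlap, 5 of 50.

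The strongest summits of called genes lay mostly upstream of the RNA's 5′ end. Their spread was smaller over the called snRNA genes than over the called snoRNA genes, which was not tested. Second summits, downstream of the 5′ end, are given below for sls-2.1, sls-2.4 and sls-2.2. Of the 11 called snRNA genes, 10 had their strongest summit upstream of the 5′ end, each within 100 bp of it. The exception was sup-6, at 18 bp into the gene. Over all 11 the median was -31 bp, with quartiles of -40 and -23 bp and a range from -57 to 18 bp. Of these genes, sup-39 and mir-1831 share 1 summit. Of the 45 called snoRNA genes, 36 (80.0%) had it upstream and 31 within 100 bp upstream. Over all 45 the median was -42 bp, with quartiles of -62 and -19 bp and a range from -176 to 237 bp. A range tends to grow with the number of genes. The summit was mostly upstream in both placements, in 15 of 17 host-intron and 15 of 18 free-standing snoRNA genes. The medians were -49 bp over all 17 and -38 bp over all 18. In the longer lists the share upstream was lower for both biotypes. For snRNA genes it was 57.6% of the 33 with a summit in the pooled list and 55.6% of the 36 in each replicate, and in replicate 1 44.4% lay within 100 bp upstream. For snoRNA genes it was 61.8% of the 123 in the pooled list, 55.6% of the 135 snoRNA genes with a summit in replicate 1 and 55.3% of the 132 in replicate 2. Of the 57 summits, most lay at the middle of peaks 376 bp wide, so these distances are no finer than the caller's placing.

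**Figure D2:**
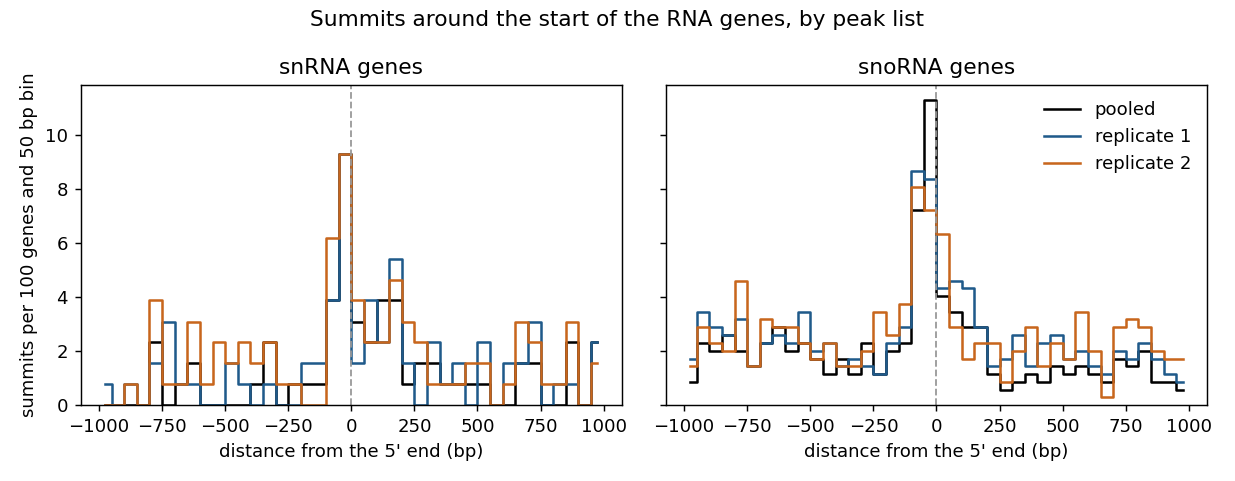
Summits per 100 genes in bins of 50 bp (y axis) by distance from the RNA's 5′ end in bp (x axis, negative upstream), for snRNA genes (left) and snoRNA genes (right), in the pooled list (black), replicate 1 (blue) and replicate 2 (orange). The bin just upstream of the 5′ end holds 9.30 summits per 100 snRNA genes in all 3 lists, the highest value in that panel.

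**Figure D3:**
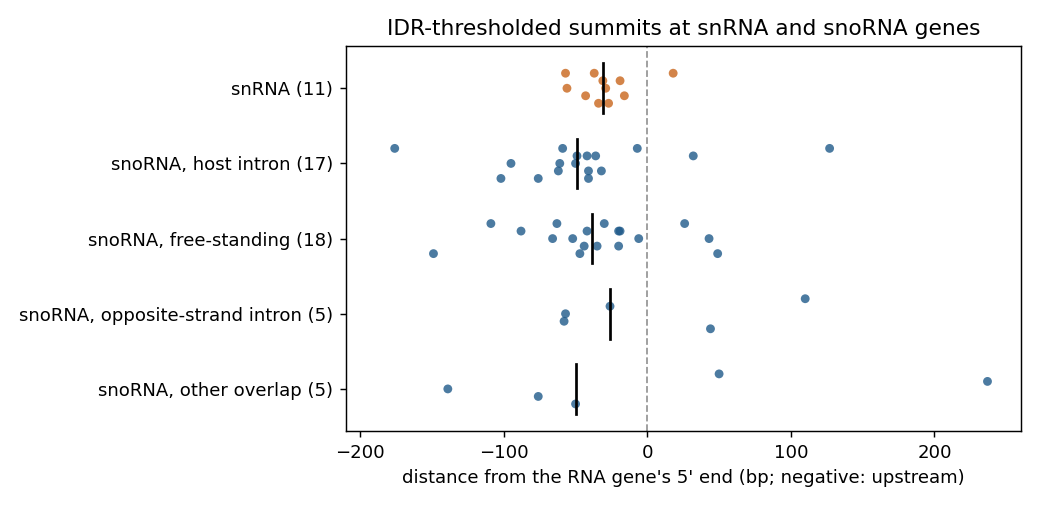
Distance of the strongest IDR-thresholded summit from the RNA's 5′ end in bp (x axis, dashed line at the 5′ end) for each called gene, by biotype and placement. Each point is a gene and the vertical bar is the median. All snRNA points but 1 lie left of the dashed line, and medians run between -26 and -50 bp.

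Most called host-intron snoRNAs had their summit away from any annotated protein-coding start. A promoter here is the stretch of 500 bp before and 100 bp after a protein-coding start. Of all 19973 protein-coding genes, 4.37% had an IDR-thresholded summit there. That is a share of genes and not of summits, so it is no background for the counts that follow. The share of all nuclear summits that lie in promoters is not given here. Of the 17 called host-intron snoRNA genes, 2 had the strongest summit in a promoter: C02F5.15, in the promoter of the neighbouring gene fbxl-1, and smy-2, in that of its host C33A12.3. Of all 145 host-intron snoRNA genes, 100 lay away from protein-coding promoters and transfer RNA genes, and 14 of these were called. Most such windows thus held no promoter. The called genes are not shown to differ in this from host-intron snoRNA genes in general. Of all 56 called members, 15 had their strongest summit in a protein-coding promoter, 3 snRNA and 12 snoRNA genes. For these 15 the summit cannot be assigned to the RNA gene rather than to the protein-coding gene. Windows of 200 bp around a transfer RNA gene overlapped those of 3 of the 475 members, and of 0 of the 56 called ones.

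The SL2 genes differed strongly among themselves. There are 18 of them, and 4 were called, 11 had a pooled summit, 11 a summit in replicate 1 and 13 in replicate 2. At sls-2.1 the summit scored 228 in the IDR-thresholded list, where it ranked 11 of 1803. In replicate 1 it scored 148 (rank 13) and in replicate 2 it scored 80.6 (rank 14). At sls-2.4 the score was 191 (rank 21), with scores of 121 (rank 24) in replicate 1 and 67.1 (rank 26) in replicate 2. At sls-2.2 the score was 173 (rank 30), with scores of 122 (rank 23) in replicate 1 and 50.2 (rank 59) in replicate 2. Scores are not on 1 scale between lists, so only ranks are compared. The 3 genes thus stood at ranks of 59 or better in each replicate. The paralog sls-2.3, less than 1 kb from sls-2.2 and with the same word upstream, had only a pooled summit of score 18.6 (rank 3784), with ranks of 14197 in replicate 1 and 2200 in replicate 2. Each of sls-2.1, sls-2.4 and sls-2.2 had a second IDR-thresholded summit downstream of the gene's 5′ end, at 147, 175 and 173 bp, scoring 42.63, 41.21 and 36.75.

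Of the 11 SL2 genes with the spaced pair, shown above for sls-2.8, sls-2.16 and sls-2.11, 1 was called and 5 had a pooled summit. The called one was sls-2.8 (score 76.7, rank 284), in the shared promoter region of tim-1, the worm's timeless homolog, and Y75B8A.23. It ranked 226 in replicate 1 and 514 in replicate 2. The pooled summits of sls-2.14, sls-2.15, sls-2.17 and sls-2.18 scored between 9.68 and 16.0. sls-2.16, sls-2.11, sls-2.5 and sls-2.12 had no summit in any list. The 3 SL2 genes with neither word were sls-2.6, sls-2.7 and sls-2.9, and of these sls-2.7 had the highest pooled score, 24.2 (rank 2493), and sls-2.9 ranked 6425. These are values with no test, since the words were picked from these sequences.

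The widths of these SL2 peaks were 219 bp at sls-2.1 (chrII:5844672-5844890), 205 bp at sls-2.2 (chrII:5543458-5543662) and 223 bp at sls-2.4 (chrI:4172046-4172268). The peak of M7.15 was 244 bp wide, and every other strongest peak at a called member was 376 bp wide.

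The other spliceosomal families are small, and their counts are given beside 3.20% of all nuclear genes called and 21.2% with a pooled summit. The annotation used here gives no U-family names to these genes, so they were grouped by a short sequence in the first 25 bases of the RNA, and "type" marks that. Of 12 U1-type genes, which recognize 5′ splice sites, 3 were called (the share among the 18 SL2 genes was 22.2%) and 5 had a pooled summit. The called U1-type genes included sup-6 (score 68.2, rank 386, ranks of 569 in replicate 1 and 223 in replicate 2) and sup-39 (score 54.6, rank 614, ranks of 667 and 494), both known from suppressor alleles that change the choice of 5′ splice site. The sup-6 summit lay at 165 bp from the 5′ end in replicate 1 and at -1 bp in replicate 2, so its ranks may not be of 1 site. sup-6 lies in an intron of F58G1.7 and sup-39 in an intron of C15F1.5. The 22 bp gene mir-1831, annotated as a snRNA, lies within sup-39 and shares its summit. The third U1-type gene, F08H9.11, had the lowest score of the called snRNA genes (33.1, rank 1517), with its summit in the promoter of clec-57.

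Of 5 U4-type genes 1 was called (20.0%), C52E4.8 (score 94.7, rank 150). It ranked 280 in replicate 1 and 89 in replicate 2. Its summit, 37 bp upstream of the RNA, also lay in the promoter of snr-4, a core Sm protein gene, and the peak (chrV:11979893-11980268) was the strongest promoter peak of the snRNP protein genes described below. Of 19 U6-type genes 2 were called, W05B2.8 in an intron of the dynein heavy chain gene dhc-4 (score 88.5, rank 194, 43 bp upstream) and the free-standing F54D8.7 (score 33.3, rank 1500, 56 bp upstream). W05B2.8 ranked 185 in replicate 1 and 234 in replicate 2. No U2-type gene of 20, no U5-type gene of 11 and no SL1 gene of 12 was called. At 3.20%, under 1 called gene would be counted in each of these families, so the zeros are near the background. Pooled summits were found at 3 U2-type, 3 U5-type and 0 SL1 genes, the highest at F38E11.10, a U5-type gene (score 27.3, rank 2065). Further uncalled snRNA genes with pooled summits were R07E5.16, a U6-type gene in an intron of mpc-1 (score 23.6), W04G5.11, a U2-type gene (16.1), and T08G5.11, a U1-type gene (13.9). Of the 10 SmY genes annotated as snRNA 0 were called and 1, smy-7, had a pooled summit (score 15.1). The annotation gives 2 further SmY genes the biotype snoRNA, and of these smy-2 was called (score 43.4, rank 954).

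Repeated sequence moved with these counts. For each window the share of its 31-base words that occur once in the nuclear genome was computed. All 12 SL1 windows and 7 of the 20 U2-type windows had under 50% of such words, and the 12 SL1 genes had only 2 distinct sequences. Of all 36 members with under 50%, 0 had an IDR-thresholded summit and 1 (2.78%) a pooled summit. Over all nuclear genes the shares were 3.20% and 21.2%, so the 0 is near the background. Such shares for other genes in repeated sequence are not given here. Of the 439 members with at least 50%, 56 were called. How the authors treated reads that map to several places is not given in the sources used here, so a gene in such sequence without a summit is not shown to be unbound. The part of repeated sequence in the family counts was not tested.

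The scores of called snRNA and snoRNA genes overlapped, with a lower median for snoRNA genes, which was not tested. The median score over the called genes was 76.7 for snRNA (33.1 to 228) and 42.3 for snoRNA (29.9 to 230), against 44.3 over all nuclear IDR-thresholded peaks. The highest-scoring snoRNA gene was M7.15, a free-standing gene with a score of 230 (rank 10), with scores of 150 (rank 12) in replicate 1 and 80.2 (rank 15) in replicate 2. Its summit lay 109 bp upstream, outside the 100 bases shown above and on the side away from klc-1, a kinesin light chain gene that starts downstream of M7.15 on the same strand. Next came F59C6.15, a free-standing gene with the spaced pair (score 74.9, rank 303), and ZK994.7 in an intron of pxn-1, a peroxidasin gene (score 71.6, rank 344, 7 bp upstream). ZK994.7 ranked 475 in replicate 1 and 232 in replicate 2, while F59C6.15 ranked 187 in replicate 1 and 2118 in replicate 2. The F59C6.15 summit lay at -44 bp from the 5′ end in replicate 1 and at -108 bp in replicate 2, so its ranks may not be of 1 site.

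Further high-scoring snoRNA genes were ZK20.9 (score 68.5), F07A11.15 at the corepressor gene din-1 (66.9, with the summit 237 bp into the gene and in the promoter of din-1), and the neighbours C51F7.4 and C51F7.3 at frm-7, which share 1 summit (66.1). D2021.6 (66.0) had its summit in the promoter of sdha-1, which encodes a subunit of succinate dehydrogenase, F39B2.14 (57.9) in those of the ribosomal protein gene rps-26 and of tmem-107, and Y53F4B.48 (53.9) in that of the glutathione transferase gene gst-27. For these 3 and for F07A11.15 the RNA gene and the protein-coding gene cannot be told apart at the site. Scores between 42.6 and 46.7 were found at Y74C9A.6, C27H6.5 in an intron of unc-41, C46C2.8, F09G2.14, C08D8.3, C10C6.8 in an intron of catp-8, Y38F2AR.14, Y53F4B.47 and F32E10.10. M106.6, in an intron of the condensin gene mix-1, scored 42.6 as well.

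The replicates held most called genes in common. Of the 56 called members, 54 also had a summit in each replicate list, anywhere in the window and not always at the called site. The IDR-thresholded list was made from those lists, so this is no separate evidence. Among the 1803 strongest peaks of each replicate alone, 57 members had a summit in replicate 1, 56 in replicate 2 and 38 in both. Of the called members 10 lay outside those of replicate 1 and 10 outside those of replicate 2. Over the full lists 112 members had a summit in both replicates, 59 in replicate 1 alone, 56 in replicate 2 alone and 248 in neither. The called genes T24H7.6 and F17C11.24, had a summit in replicate 1 and none in replicate 2. Of the other 54 the most uneven in rank was C02F5.15, in an intron of the RAD-51 paralog gene rfs-1, ranked 510 in replicate 1 and 10459 in replicate 2. Its summit lay at -130 bp from the 5′ end in replicate 1 and at 328 bp in replicate 2, so these are not ranks of 1 site.

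**Figure D4:**
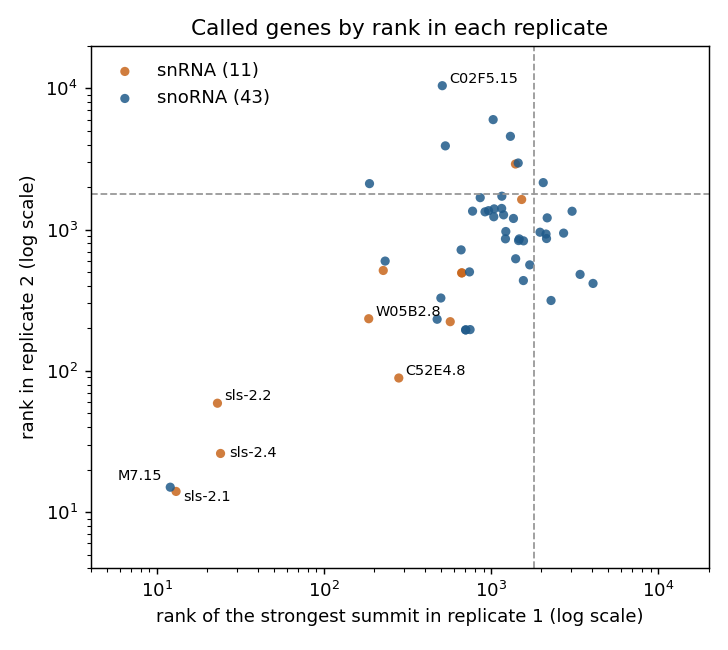
Rank of the strongest summit in replicate 1 (x axis) and in replicate 2 (y axis), both on log scales with rank 1 at the lower left, for the 54 called genes with a summit in both replicates (orange, snRNA; blue, snoRNA). Dashed lines mark rank 1803. M7.15, sls-2.1, sls-2.4 and sls-2.2 stand apart at the lower left, at ranks between 12 and 59 in both replicates.

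Genes with either upstream word had summits more often than genes without them. Since the words were picked from called members' sequences, the shares are a description, with no test. Of the 34 members with the B-box word, 13 (38.2%) were called and 24 (70.6%) had a pooled summit. Of the 70 with the spaced pair, 13 (18.6%) were called and 32 (45.7%) had a pooled summit. Of the 371 with neither, 30 (8.09%) were called and 100 (27.0%) had a pooled summit, against 3.20% and 21.2% of all nuclear genes. Among snoRNA genes alone, the replicate 1 list gave 81.8% with the B-box word, 70.4% with the spaced pair and 31.1% with neither, and the replicate 2 list gave 63.6%, 59.3% and 33.2%. Among host-intron snoRNA genes 6 of 12 with the B-box word, 3 of 8 with the spaced pair and 8 of 125 with neither were called, so 9 of the 17 called ones had a word of this kind. Among free-standing genes the counts were 3 of 12, 4 of 14 and 11 of 98.

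The 13 called snoRNA genes with the B-box word were C51F7.3, C02F5.15, F32E10.10, M106.6, T02E1.9, C04G6.12, Y43F8C.22, T19B4.8, F11A10.9, T24H7.6, T03F7.8, W03C9.9 and ZK484.9. Their scores ran between 30.2 and 66.1. They include C04G6.12 in an opposite-strand intron of the MAP kinase gene mpk-2 (score 41.9, ranks of 1224 in replicate 1 and 970 in replicate 2) and F11A10.9 in an intron of rbm-34 (score 39.1, ranks of 3407 and 482). T24H7.6 had a summit in replicate 1 (rank 1165) and none in replicate 2. The summit lay at a median of 39 bp before the first base of the word, with a range from 130 bp before to 54 bp after it. For the spaced pair the median was 27 bp after its first base in the 6 called snRNA genes and 26 bp after it in the 7 called snoRNA genes. The ranges were wide, from 10 to 73 bp for snRNA and from -5 to 85 bp for snoRNA genes (negative before the first base). The 6 snRNA genes include sup-39 and mir-1831, which share 1 summit.

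**Figure D5:**
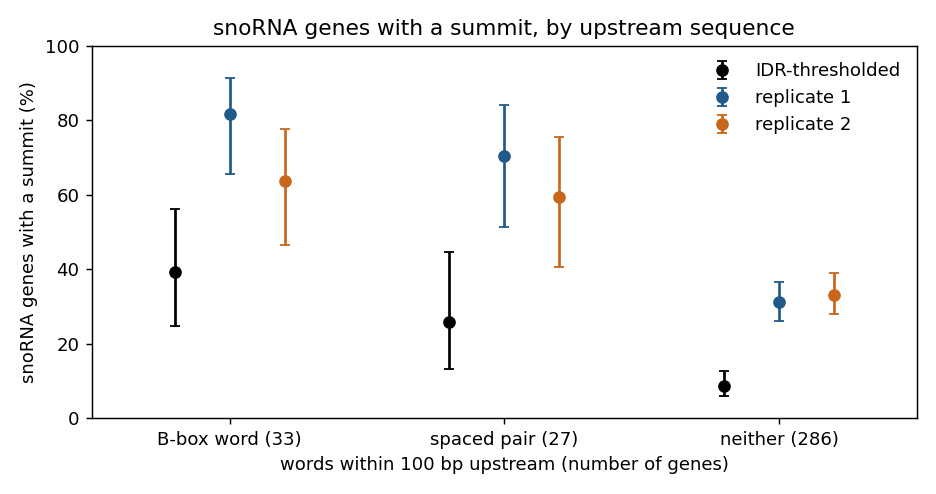
Share of snoRNA genes with a summit within 200 bp (y axis, percent) by the word found within 100 bp upstream (x axis, number of genes in brackets), in the IDR-thresholded list (black), replicate 1 (blue) and replicate 2 (orange). Points are shares and bars 95% Wilson intervals. The share called is 39.4% with the B-box word, 25.9% with the spaced pair and 8.74% with neither.

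The called genes were also counted by chromosome. For snRNA genes the counts were 0 of 41 on chromosome IV, 2 of 40 on chromosome V and 5 of 16 on chromosome II. They were 3 of 13 on chromosome III, 1 of 16 on chromosome I and 0 of 3 on the X chromosome. For snoRNA genes the counts were 13 of 71 on chromosome II, 12 of 55 on chromosome V, 9 of 74 on chromosome I, 7 of 59 on chromosome IV, 3 of 54 on chromosome III and 1 of 33 on the X chromosome, where D2021.6 was the called gene. Over all nuclear genes 3.20% were called, so a 0 in sets of this size is near the background. Shares of all genes by chromosome are not given here. Families cluster on chromosomes and share sequence, so these counts are a description, with no test.

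Base composition and other words were also described. The 100 bases upstream averaged 54.4% ± 7.37 G and C in the 56 called members, 43.0% ± 9.76 in the 319 members with no pooled summit and 33.2% ± 8.27 at protein-coding genes (SD over genes), so G and C content moved with the calls, and its part in them was not tested. The E-box CAGGTG, a sequence that ZEB-family factors bind, stood on either strand within 100 bp of 2 of the 57 member summits (3.51%, 0.968 to 11.9), against 34 of all 1784 nuclear summits (1.91%), which include them. GAGAGA, searched on both strands, stood at 15 of the 57 (26.3%, 16.6 to 39.0), against 889 of the 1784 (49.8%, 47.5 to 52.1). TATAAA was found within 100 bp upstream of 16.3% of snRNA and 11.0% of snoRNA genes, against 19.3% of protein-coding genes, and of 9 of the 19 U6-type genes.

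Protein partners of these RNAs were taken from a list of 66 genes for snRNP, snoRNP, SNAPc and Integrator proteins, of which 60 symbols were found. Of the 60, 8 (13.3%, 6.91 to 24.2) had an IDR-thresholded summit in the promoter, against 4.37% of all protein-coding genes, and 27 (45.0%) had a pooled summit, against 19.7%. The 8 were snr-4 and snr-6 among the 7 Sm core genes, lsm-7 among 7 Lsm genes, prp-8 of the U5 particle, fib-1 and nol-56 among 3 box C/D snoRNP genes, and ints-2 and ints-4 among 11 Integrator genes, which encode the complex that cleaves the 3′ ends of snRNAs. None of the 7 SNAPc genes and none of the 3 box H/ACA genes had one. Beside 4.37% of all protein-coding genes, zeros in sets of this size are near the background. The SNAPc genes snpc-1.2, snpc-3.4 and snpc-4 had a pooled promoter summit, and no box H/ACA gene had. The symbols not found include snpc-1.5, snpc-3.3 and nhp-2, so these sets may be incomplete. snr-4 scored 94.7 (rank 150) with the summit it shares with C52E4.8, ints-4 scored 85.0 (rank 213) and fib-1, the methyltransferase of box C/D snoRNPs, scored 75.0 (rank 299; chrV:15002082-15002457). fib-1 ranked 473 in replicate 1 and 160 in replicate 2, and ints-4 ranked 238 and 237. prp-8 scored 53.8 (chrIII:8163882-8164257), and the other 4 scored between 31.0 and 41.0.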

How the data were processed

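ChIP-seq of eGFP-tagged ZAG-1 was measured in 2 biological replicates, 1 group. Per the deposited file list, peaks were made from each replicate's alignment and a control alignment, then from the pooled replicates, and the authors derived the IDR-thresholded list from these. Which peak caller, read filters and IDR threshold were used is not given in the sources used here. A score and a −log10 q-value per peak are the authors', as deposited, and only the score was used, to rank peaks within a list. In ce11 the lists held 1803 (IDR-thresholded), 16325 (pooled), 24146 (replicate 1) and 29374 (replicate 2) peaks. No signal or counts were analysed, so read depth is unknown, and intervals cover only the counting of genes.

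Genes came from Ensembl release 115 of WBcel235 and symbols from RefSeq, which matched all 475 members. Sequences were read from the RefSeq genome of WBcel235, on the RNA's strand. Summits within 200 bp of a gene were counted in Python 3.11.15 (numpy 2.4.6, scipy 1.17.1), and figures were drawn with matplotlib 3.10.9. Intervals are 95% Wilson intervals. Merged loci were compared with Fisher's exact test, two-sided, with Benjamini-Hochberg adjustment over 4 tests and a threshold of 0.05. The counting was tested on planted summits. Alternatives were other windows, peak overlap, the higher-scoring 50% of the peaks, the pooled peaks, each replicate alone, genes in place of loci, either strand for introns, and leaving out members near promoters or in repeated sequence. The members, lists and tests were chosen with earlier results of these data known, and the upstream words after reading the sequences. Named were the called members up to the 30 highest-scoring, up to 10 further snRNA genes by pooled score, and partner genes with an IDR-thresholded promoter summit; others were named from these tables after their values were seen. Sequences were those of the 10 highest-scoring named members that could be shown, with 7 more chosen after reading them.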

Additional observations from a re-analysis of the deposited data

How the results depend on the processing

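Of 63 alternatives over 7 results, 51 kept the direction and side of the threshold or stayed within the main interval. With the pooled peaks the shares were 25.6% of snRNA, 35.5% of snoRNA, 29.0% of host-intron and 46.8% of free-standing snoRNA genes, and 45.0% of snRNP and snoRNP protein genes, as a longer list gives. With the higher-scoring 50% of the peaks they were 3.76% of snoRNA, 2.76% of host-intron and 4.84% of free-standing genes, and 6.67% of the protein genes. The snRNA share was then 6.98% and the difference of snRNA from snoRNA loci turned to 2.85 percentage points (Fisher's exact p = 0.204). The difference of host-intron from free-standing loci turned to 1.65 points with windows of 500 bp (p = 0.749, Fisher's exact) and to 3.76 points without members near promoters or transfer RNA genes (p = 0.508, Fisher's exact); the cause was not tested. Neither difference passed the threshold after adjustment over 4 tests under any alternative given here. The pooled list is given only with the main windows and loci. Pooled differences under the other settings, such as genes in place of loci, are not given, so they are not covered. Unadjusted Fisher's exact p-values under 0.05 were 0.0441 for snRNA against snoRNA loci with peak overlap (adjusted 0.0881), and with the pooled peaks 0.0333 for that comparison and 0.0204 for host-intron against free-standing loci (adjusted 0.0665 for both). Leaving out a replicate (the 1803 strongest peaks of the other) gave 8.53% to 9.30% of snRNA, 12.7% to 13.3% of snoRNA, 10.3% to 11.0% of host-intron and 16.1% to 17.7% of free-standing genes, 10% to 16.7% of the protein genes, and differences of -5.38 to -3.95 and -6.35 to -3.95 points. No paired analysis was possible because both samples belong to 1 group. Depth is unknown, and a gene without a summit is not shown to be unbound.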
